A study of Mus musculus with 12 samples.

Results

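The cytosolic ribosomal protein genes encode the proteins of the large (60S) and small (40S) ribosomal subunits. They were followed in γδ and CD4+ T cells of mice given a control diet or an MCD diet, a diet deficient in methionine and choline that is used to bring on steatohepatitis. Members were taken by symbol: names that start with Rpl or Rps followed by a number, with the suffixes a, x, l, y or p, the stalk proteins Rplp0 to Rplp2, and Rpsa. A sum of at least 100 reads over all libraries was required. Of 88 matching symbols, 83 met the limit, out of 52459 genes in the table. The large subunit gave 49 of them and the small subunit 34. Rpl6l (158 reads), Rps3a3 (283 reads) and Rps3a2 (370 reads) lay just inside the limit. Rps4l (33 reads), Rpl39l (7 reads), Rpl3l (5 reads), Rpl10l (1 read) and Rps12l1 (0 reads) lay below it. The rule itself uses symbols and read totals, and no difference between groups.

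RNA was sequenced from sorted cells in 6 groups of 2 libraries each. They were CD4+ T cells of γδTCR-/- mice on the MCD diet, the same cells of γδTCR-/- mice on the control diet, CD4+ T cells of wild-type (WT) mice on the MCD diet, those of WT mice on the control diet, γδ T cells of WT mice on the MCD diet, and γδ T cells of WT mice on the control diet. All mice started their diet at 7 weeks of age and stayed on it for 6 weeks. γδTCR-/- mice lack the γδ T cell receptor and hence γδ T cells, so no γδ library exists for that genotype. The title of 1 γδ MCD library (replicate 2) also carries the identifier of a WT CD4+ MCD library (replicate 1), and whether both came from 1 mouse is not stated. The labels give neither the allele, nor the tissue the cells were sorted out of, nor whether the 2 libraries of a group came from separate mice. The p-values below therefore measure the spread between libraries, which may be technical.

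A mammalian ribosome carries, with few exceptions, a single copy of each ribosomal protein, and cells hold their mRNAs at matched levels. Many of these mRNAs begin with a C followed by a run of pyrimidines, the 5′ terminal oligopyrimidine (TOP) tract. Through this tract mTORC1, a kinase that reads nutrient supply and, in T cells, antigen receptor and cytokine signals, sets their translation. Naive T cells translate little, and they raise ribosome production once they are activated. Loss of a single ribosomal protein can affect one T cell lineage more than another: mice without Rpl22 lose αβ T cells and keep γδ T cells.

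To show pyrimidine tracts near the starts of these genes, the RefSeq start regions (build GRCm38.p6) of 10 members are given. They run from 30 bases before the annotated start to 20 bases from it. Capitals mark a tract of a C followed by at least 4 C or T that begins within 5 bases of the start. Among members with a matched promoter, 29 had such a tract and 31 did not, and the 10 shown do not reflect these shares. Tracts further from the RefSeq start, as in Rpl4, Rps12 and Rps25, were not counted. The split thus depends on the annotated start and does not show which mRNAs lack a TOP tract. Of the 10, the first 6 carry long tracts. Rps27l and Rpl22l1 are the paralogs of Rps27 and Rpl22. Rplp0 and Rpl4, which are described in the diet comparison below, have no such tract within 5 bases of the RefSeq start. The GENCODE start of Rpl4, chr9:64173375, lies before its RefSeq start, and a C followed by a run of pyrimidines begins exactly there.
Rpl38: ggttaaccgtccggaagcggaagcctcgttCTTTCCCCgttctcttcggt
Rps15a: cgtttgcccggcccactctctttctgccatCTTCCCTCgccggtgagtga
Rps6: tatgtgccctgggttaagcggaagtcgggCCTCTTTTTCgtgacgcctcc
Rps27: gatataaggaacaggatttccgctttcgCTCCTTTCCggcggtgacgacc
Rps18: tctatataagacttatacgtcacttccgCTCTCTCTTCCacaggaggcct
Rpl18: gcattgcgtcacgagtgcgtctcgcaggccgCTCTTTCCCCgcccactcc
Rpl22l1: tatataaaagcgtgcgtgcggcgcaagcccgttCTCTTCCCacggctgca
Rps27l: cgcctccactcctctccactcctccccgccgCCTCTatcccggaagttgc
Rplp0: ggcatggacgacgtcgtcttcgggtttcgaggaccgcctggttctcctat
Rpl4: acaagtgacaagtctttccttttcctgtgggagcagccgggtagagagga

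These stretches lie at chr11:114668550-114668599 for Rpl38 (plus strand), chr7:118116128-118116177 for Rps15a (minus strand), chr4:86857348-86857397 for Rps6 (minus strand), chr3:90213629-90213678 for Rps27 (minus strand) and chr17:33955646-33955695 for Rps18 (minus strand). The other 5 lie at chr7:45718041-45718090 for Rpl18, chr3:28805478-28805527 for Rpl22l1, chr9:66946056-66946105 for Rps27l, chr5:115559437-115559486 for Rplp0 and chr9:64173357-64173406 for Rpl4, all on the plus strand. RefSeq promoters were matched for 60 of the 83 members, with 71 promoters in all. A tract that begins exactly at the start was found in 18.3% of these, against 2.51% of all 32851 promoters. Within 5 bases of the start the shares were 43.7% of member promoters and 18.3% of all promoters. In the 300 bases around the start (250 before and 50 after, both strands), CCGGAAG, the letters that GABP and other ETS factors bind, was found in 36.6% of member promoters and 8.86% of all promoters. AAGATGGC, bound by YY1, was found in 11.3% of member promoters and 2.75% of all promoters. GGGCGG, bound by Sp1, was found in 62.0% and 35.7%, and TATAAA, the TATA box, in 9.86% and 13.6% of the same 2 sets. Among promoters of protein-coding genes alone, CCGGAAG was found in 11.6%, AAGATGGC in 3.05%, GGGCGG in 46.2% and TATAAA in 12.6%. The tract was found in 2.21% of these promoters exactly at the start and in 18.6% within 5 bases of it. A match is a description of the letters and shows no binding.

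The libraries held 17035638 to 23203603 counts, of which 7977220 to 10851934 were not mitochondrial. Mitochondrial genes took 43.9% and 41.1% of counts in γδTCR-/- CD4+ libraries on the MCD diet and 52.7% and 51.1% in those on the control diet. The share was 40.8% to 43.9% in the 4 WT CD4+ libraries and 53.8% to 56.8% in the 4 γδ libraries. The sorted cells matched their labels at the defining genes. Trdc, the constant segment of the δ chain, was at 538 to 733 CPM (counts scaled to a common library size, with TMM, a trimmed mean, to even out library composition) in γδ libraries and at 0.231 to 7.93 CPM in CD4+ libraries. Cd4 was at 0.975 to 4.29 CPM in γδ libraries and at 632 to 1448 CPM in CD4+ libraries. Trdc in CD4+ libraries was 3.69 and 0.920 CPM in γδTCR-/- MCD, 3.22 and 7.93 CPM in γδTCR-/- control, 2.80 and 0.231 CPM in WT MCD and 0.828 and 2.69 CPM in WT control cells. It was thus not lower in γδTCR-/- than in WT cells (log2 fold change 0.58, SE 0.85, on the MCD diet and 1.61, SE 0.84, on the control diet, with an edgeR adjusted p of 1 for each). At these low levels in WT CD4+ T cells Trdc does not check the genotype labels.

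Of the 83 members, 80 are annotated as protein-coding, and Rpl6l, Rps3a2 and Rps3a3 as processed pseudogenes. The members lie on 19 chromosomes, with 14 on chromosome 7. All 83 passed the filter on low counts, among 16218 genes tested. Per length of transcript (FPKM), Rpl4, a large-subunit protein that lines the exit tunnel of the nascent chain, had the highest level, with a mean of 409 FPKM over the 12 libraries. High levels were also found for Rps3a1 (226 FPKM), Rpl17 (188 FPKM), Rps4x (180 FPKM) and Rpl32 (151 FPKM). Rpl4 alone held 8.07% to 11.9% of all ribosomal protein counts. The lowest protein-coding member was Rpl7l1 at 2.63 FPKM, and the 3 pseudogene members lay at 0.758 to 1.90 FPKM. Members with near-identical copies elsewhere in the genome are uncertain in level, because the counting can divide their reads.

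The summed level of the members, as a percent of non-mitochondrial counts, was 1.23% and 1.16% in γδTCR-/- CD4+ T cells on the MCD diet. In γδTCR-/- CD4+ T cells on the control diet it was 2.22% and 2.62%. WT CD4+ T cells had 1.45% and 1.25% on the MCD diet and 1.70% and 1.36% on the control diet. γδ T cells had 1.47% and 1.19% on the MCD diet and 1.82% and 1.49% on the control diet. The γδTCR-/- MCD libraries were the lowest and the third lowest of the 12, and the γδTCR-/- control libraries the 2 highest. In bulk samples, fewer cells of a type with high levels and less RNA per cell cannot be told apart.

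**Figure D1:**
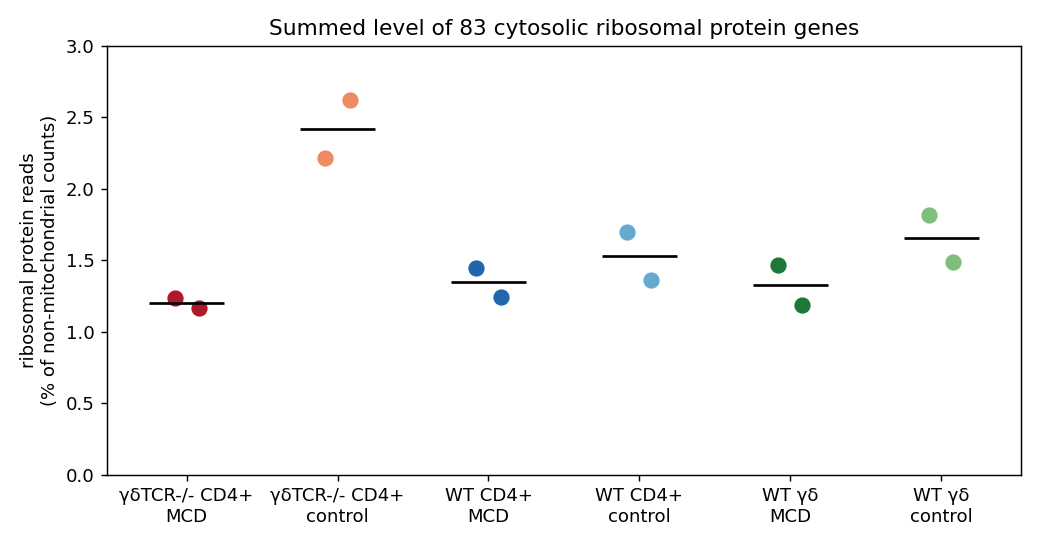
Percent of non-mitochondrial counts that fell on the 83 ribosomal protein genes, with 1 point per library and a bar at the mean of each group (n = 2). The points of γδTCR-/- CD4+ T cells on the control diet, 2.22% and 2.62%, lie above those of the other 10 libraries, 1.16% to 1.82%.

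The pattern was shared by most members, though the counts of members in this paragraph were not made for all genes tested. Relative to its own mean over the 12 libraries, 8 and 8 of the 83 members were above the mean in the γδTCR-/- MCD libraries, and 72 and 81 in the γδTCR-/- control libraries. In WT CD4+ T cells these numbers were 32 and 8 on the MCD diet and 52 and 15 on the control diet. In γδ T cells they were 55 and 32 on the MCD diet and 68 and 51 on the control diet. The lowest group mean of the 6 belonged to γδTCR-/- MCD cells for 49 members and to WT CD4+ MCD cells for 14. The highest belonged to γδTCR-/- control cells for 60 members. The median CPM over the members was 41.9 in γδTCR-/- MCD cells, 102 in γδTCR-/- control cells, 50.7 in WT CD4+ MCD cells, 59.6 in WT CD4+ control cells, 66.9 in γδ MCD cells and 81.2 in γδ control cells. Within groups, Pearson's r of the members' log2 CPM between the 2 libraries ran from 0.873 in γδ MCD cells to 0.964 in γδTCR-/- MCD cells, a description across 83 genes of shared libraries.

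**Figure D2:**
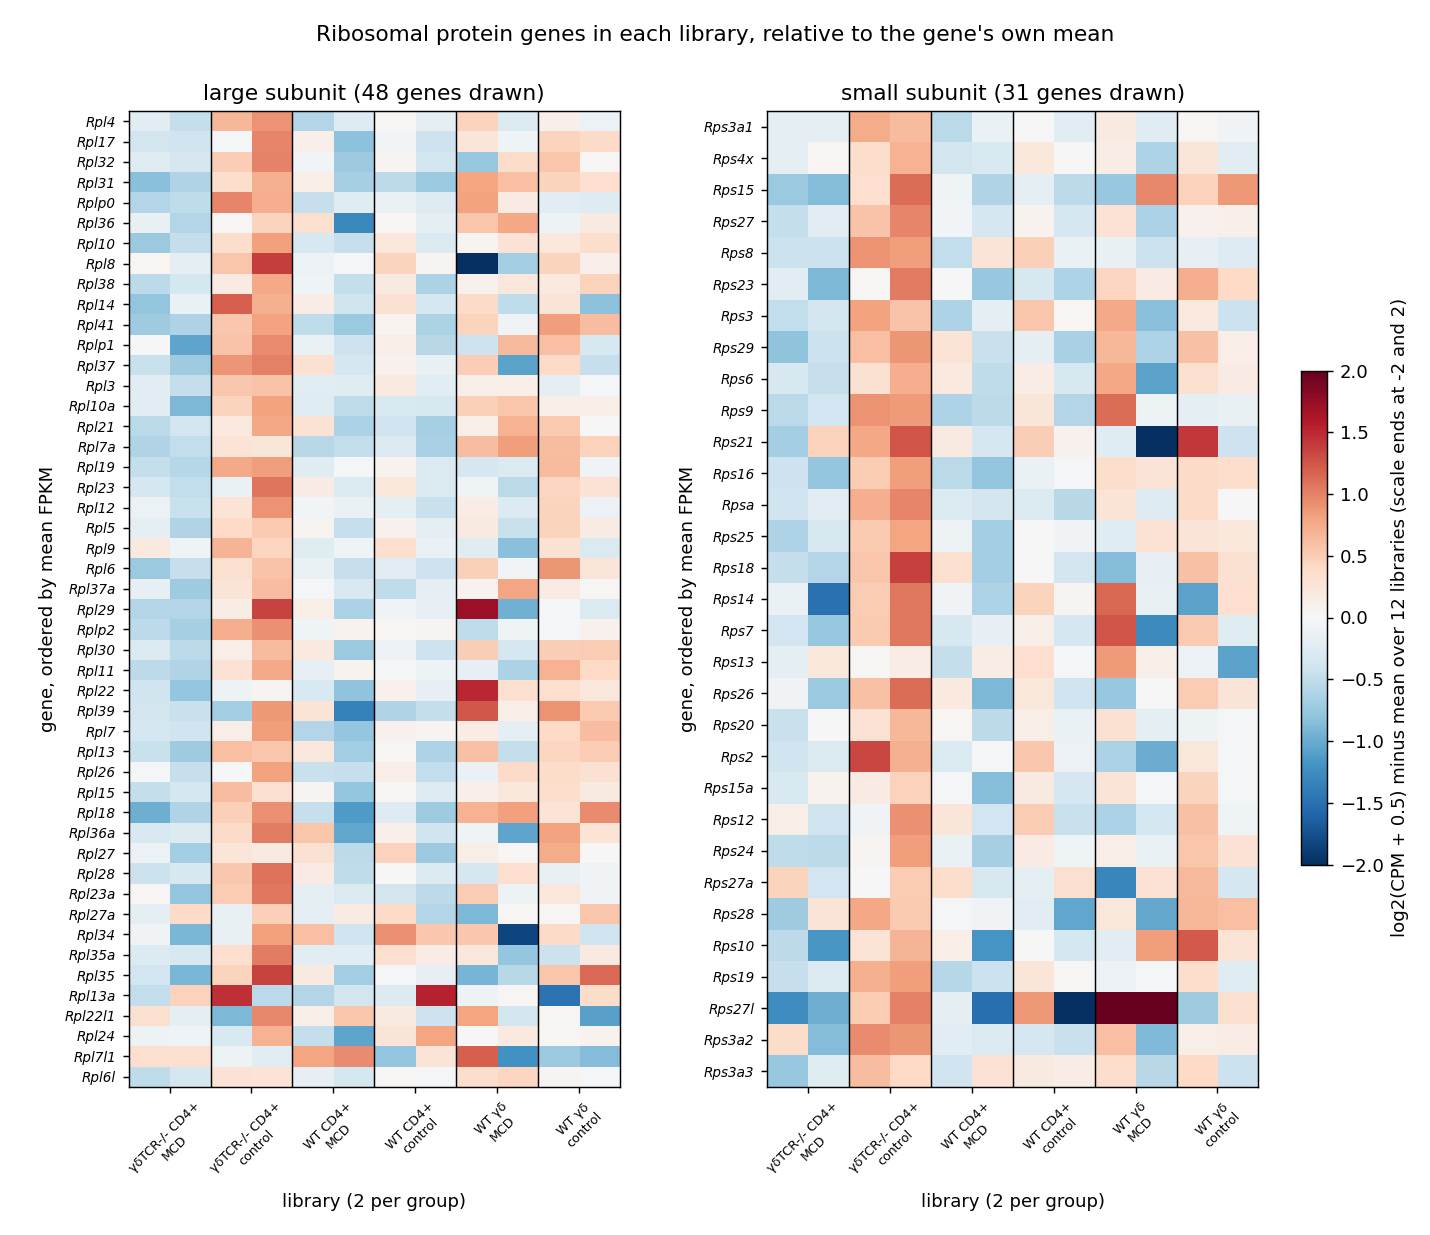
Each row is a member (a few are not drawn) and each column a library, 2 per group; color gives log2(CPM + 0.5) minus the gene's mean over the 12 libraries. The first 2 columns, γδTCR-/- MCD, are red (above the mean) for 8 of all 83 genes each, and the 2 columns to their right, the γδTCR-/- control libraries, for 72 and 81.

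Between diets in γδTCR-/- CD4+ T cells, 82 of 83 members were lower on the MCD diet than on the control diet, where 47.1% of all genes tested were lower. Both MCD libraries lay below both control libraries for 73 members, against 18.1% of all genes. The median log2 fold change of the members was -1.11, that of all genes 0.03. In the edgeR quasi-likelihood test, adjusted over all 16218 genes, 0 members passed 0.05, and 0.037% of all genes did. At an unadjusted p under 0.05, 42 members were lower and 0 higher, against 2.24% of all genes lower and 3.82% higher. Adjusted p under 0.05 was reached by 10 members in DESeq2 (1.62% of all genes) and by 2 in limma-voom (0.117%). It was reached by 4 in edgeR when only the 8 CD4+ libraries were fitted (0.582%), an alternative added after seeing the data. The count was 9 without replicate 2 of the γδ MCD libraries (0.706% of all genes) and 9 without replicate 4 (0.73%). It was 1 without WT CD4+ MCD replicate 3 (0.157%), and 1 without WT CD4+ control replicate 2 (0.173%) or 3 (0.2%). These libraries enter the shared estimate of the spread but not the contrast.

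Rpl4 (ENSMUSG00000032399.8, chr9:64173375-64178666, plus strand) had 701 and 590 CPM on the MCD diet, against 1305 and 1531 CPM on the control diet. The groups did not overlap, and the log2 fold change was -1.13 (SE 0.25, edgeR adjusted p = 0.196). The adjusted p was 0.00266 without γδ MCD replicate 2 and 0.00273 without γδ MCD replicate 4, and it ran from 0.00156 to 0.746 over all alternatives. Rplp0 (ENSMUSG00000067274.10, chr5:115559467-115563727, plus strand) anchors the stalk that calls elongation factors to the ribosome. It had 108 and 114 CPM on the MCD diet, against 320 and 270 CPM on the control diet, a log2 fold change of -1.41 (SE 0.32, adjusted p = 0.201). The other stalk proteins, bound to Rplp0 as dimers, had the same sign, with 43.6 and 39.3 CPM for Rplp2 on the MCD diet against 104 and 119 CPM on the control diet. Rplp1 had 27.6 and 13.0 CPM on the MCD diet, against 41.2 and 54.0 CPM on the control diet. The log2 fold changes were -1.43 for Rplp2 and -1.22 for Rplp1, with adjusted p of 0.452 and 0.792 in edgeR.

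Among the small-subunit members, Rpsa, also known as the laminin receptor precursor, had 105 and 121 CPM on the MCD diet, against 231 and 277 CPM on the control diet (log2 fold change -1.16). Rps6, the substrate of the S6 kinases downstream of mTORC1, had 87.5 and 79.5 CPM on the MCD diet, against 136 and 181 CPM on the control diet (log2 fold change -0.92). For both the groups did not overlap and the adjusted p was above 0.05. The lowest log2 fold change of all belonged to Rps27l (-2.16), on low counts: 24 and 31 on the MCD diet, against 100 and 149 on the control diet. Rpl35 was at -1.68, a protein at the tunnel exit with 5.48 and 3.63 CPM on the MCD diet, against 10.1 and 19.6 CPM on the control diet.

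At the other end stood Rpl7l1, the only member with a value above 0 (log2 fold change 0.51, SE 1.21). Rps13 (-0.05), Rpl27a (-0.06) and Rps27a (-0.18), which is made as a fusion with ubiquitin, had values near 0. Their values went above 0 when libraries were scaled by total counts alone (0.26, 0.25 and 0.12). Rps27a had 47.4 and 26.3 CPM on the MCD diet, against 34.5 and 49.2 CPM on the control diet, so its groups overlapped. The members were also described by subunit, level and start sequence, with no test. The median log2 fold change was -1.02 for 49 large-subunit and -1.16 for 34 small-subunit members. By mean FPKM it was -1.02 in the lowest 28 members, -1.05 in the middle 27 and -1.13 in the highest 28. It was -1.13 for 29 members with the tract shown above within 5 bases of the RefSeq start, -1.05 for 31 without it there and -1.12 for 23 with no matched promoter. The 31 include members with a tract further from that start, such as Rpl4.

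Between genotypes on the control diet, 79 of 83 members were higher in γδTCR-/- than in WT CD4+ T cells, where 46.9% of all genes were higher. Both γδTCR-/- libraries lay above both WT libraries for 63 members, against 16.7% of all genes, and below both for 0 members, against 20.6%. The median log2 fold change was 0.77 for the members and -0.03 for all genes. In edgeR 0 members passed an adjusted p of 0.05 (0.0247% of all genes did), 17 were higher and 0 lower at an unadjusted p under 0.05 (1.23% and 2.79% of all genes), and DESeq2 called 1 (Rpsa; 0.734% of all genes) and limma-voom 0 (0.037%). With libraries scaled by total counts alone the median was 0.40, while that of all genes went to -0.38. This comparison shares the γδTCR-/- control libraries with the diet comparison above, so the 2 are not independent.

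Rpsa (ENSMUSG00000032518.6, chr9:120127689-120132369, plus strand) had the smallest p, with 231 and 277 CPM in γδTCR-/- cells and 116 and 94.9 CPM in WT cells on the control diet. Its log2 fold change was 1.27 (SE 0.33, edgeR adjusted p = 0.762). Rpl31, another protein at the tunnel exit, had 229 and 293 CPM in γδTCR-/- cells and 125 and 107 CPM in WT cells (log2 fold change 1.17, SE 0.33). Rpl4 had 1305 and 1531 CPM in γδTCR-/- cells and 834 and 715 CPM in WT cells (log2 fold change 0.87, SE 0.25). None of these groups overlapped. Across all CD4+ libraries, 59 members (71.1%) had both γδTCR-/- control values above the other 6, as did 6.81% of all genes tested.

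The difference of the diet effects, γδTCR-/- minus WT CD4+ T cells, was below 0 for 80 of 83 members, against 48.1% of all genes. Its median was -0.89 over the members and 0.05 over all genes. In edgeR 0 members and 0% of all genes passed an adjusted p of 0.05; 14 members were below 0 at an unadjusted p under 0.05, against 1.48% of all genes. DESeq2 called 0 members and 0.438% of all genes, and limma-voom 0 members and 0.00617% of all genes. Rpl31 (-1.68, SE 0.46) had the smallest p, and Rplp0 was at -1.26 (SE 0.44).

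Some other values were also highest, among CD4+ libraries, in the γδTCR-/- control libraries, and others were not. Their mitochondrial share was the highest among CD4+ libraries, as given above. The summed level of 8 markers of naive and resting T cells, such as Ccr7, Lef1 and Tcf7, was 2357 and 2668 CPM in γδTCR-/- MCD libraries and 4765 and 4843 CPM in γδTCR-/- control libraries. It was 2422 and 3112 CPM in WT CD4+ MCD and 2817 and 2949 CPM in WT CD4+ control libraries. Between diets in γδTCR-/- cells all 8 markers were lower on the MCD diet, with Satb1 at a log2 fold change of -1.34 (adjusted p = 0.0909) and Tcf7 at -1.19 (adjusted p = 0.137). The 6 B cell markers summed to 241 and 258 CPM in γδTCR-/- MCD, 514 and 639 CPM in γδTCR-/- control, 218 and 301 CPM in WT CD4+ MCD and 286 and 351 CPM in WT CD4+ control libraries. The 8 hepatocyte markers summed to 2.30 and 17.2 CPM in γδTCR-/- MCD libraries, where Apoa2, Fgb and Ahsg were at 0, and to 31.6 and 39.9 CPM in γδTCR-/- control libraries. They summed to 1.08 and 1.66 CPM in WT CD4+ MCD libraries, with Apoa1, Apoa2, Ttr, Serpina1a and Fgb at 0, and to 13.6 and 23.3 CPM in WT CD4+ control libraries. The 7 markers of sinusoidal endothelium summed to 75.4 and 100 CPM in γδTCR-/- MCD and 154 and 157 CPM in γδTCR-/- control libraries. They summed to 115 and 117 CPM in WT CD4+ MCD and 113 and 158 CPM in WT CD4+ control libraries. Clec4g was at 0 in all but the last group. These sums hide opposite signs. Between diets in WT CD4+ T cells the log2 fold change was 0.54 for Pecam1. It was below 0 for Dnase1l3 (-1.94), Oit3 (-2.76), Clec4g (-3.29), Stab2 (-3.71), Kdr (-4.49) and Ptprb (-5.62). For γδTCR-/- over WT on the MCD diet Pecam1 was at -0.61. Stab2 (0.95), Ptprb (1.18), Dnase1l3 (1.45), Oit3 (1.68) and Kdr (2.53) were above 0. None of these values passed adjustment in edgeR. The 6 CD4+ T cell markers summed to 2447 and 2631 CPM in γδTCR-/- MCD, 2859 and 3794 CPM in γδTCR-/- control, 2052 and 2211 CPM in WT CD4+ MCD and 2260 and 2300 CPM in WT CD4+ control libraries. Macrophage and Kupffer cell markers, 8 in number, summed to 22.6 and 47.2 CPM in γδTCR-/- MCD and 19.6 and 34.7 CPM in γδTCR-/- control libraries. They summed to 10.9 and 13.2 CPM in WT CD4+ MCD and 41.1 and 43.5 CPM in WT CD4+ control libraries. Neutrophil and monocyte markers, 6 in number, summed to 1.93 and 18.4, 7.40 and 14.3, 11.5 and 12.5, and 12.6 and 27.2 CPM in the same order of groups. The part of all these markers in the ribosomal protein result was not tested. With mitochondrial genes left out of the fit, the members' median log2 fold change was -1.09 between diets in γδTCR-/- cells and 0.75 between genotypes on the control diet.

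In WT CD4+ T cells, 60 of 83 members were lower on the MCD diet than on the control diet (49% of all genes) and 23 higher (49.7% of all genes), with a median log2 fold change of -0.15 against 0.00 for all genes. Both MCD libraries lay below both control libraries for 17 members and above them for 5, against 17.2% and 16.7% of all genes. In edgeR 0 members and 0% of all genes passed an adjusted p of 0.05, 0 members had an unadjusted p under 0.05 (0.943% of all genes were higher and 1.19% lower), and DESeq2 and limma-voom called 0. The smallest p belonged to Rpl7, with 43.0 and 37.7 CPM on the MCD diet, against 68.7 and 66.8 CPM on the control diet (log2 fold change -0.75, SE 0.42). Rps3, at the mRNA entry channel, followed with 236 and 318 CPM on the MCD diet, against 533 and 374 CPM on the control diet (-0.71, SE 0.41). Rps4x, encoded on the X chromosome, had 233 and 243 CPM on the MCD diet, against 347 and 302 CPM on the control diet (-0.45, SE 0.30). The median ran from -0.42 to 0.040 when libraries were left out in turn.

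Between genotypes on the MCD diet, 61 of 83 members were lower in γδTCR-/- than in WT CD4+ T cells and 22 higher (49.2% of all genes either way), with a median log2 fold change of -0.16, against 0.00 for all genes. Both γδTCR-/- libraries lay below both WT libraries for 14 members and above them for 4, against 17% and 15.9% of all genes. In edgeR 0 members and 0% of all genes passed an adjusted p of 0.05, 0 members had an unadjusted p under 0.05 (1.13% of all genes were higher and 0.943% lower), and DESeq2 and limma-voom called 0. Rpl31 had 100 and 118 CPM in γδTCR-/- cells and 198 and 113 CPM in WT cells (log2 fold change -0.51, SE 0.32). Rplp2 (-0.59, SE 0.41) and Rpl11 (-0.53, SE 0.40), which binds the 5S rRNA and can hold the p53 regulator Mdm2, did not overlap between the genotypes. The median ran from -0.31 to 0.060 when libraries were left out in turn.

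In γδ T cells the members' values lay on both sides of 0. On the MCD diet 53 were lower than on the control diet (51.3% of all genes), with a median log2 fold change of -0.18 against -0.06 for all genes. Both MCD libraries lay below both control libraries for 21 members and above them for 10, against 22.1% and 11.1% of all genes. In edgeR 0 members and 0% of all genes passed an adjusted p of 0.05. At an unadjusted p under 0.05, 4 members were lower and 2 higher, against 11.2% and 6.29% of all genes. DESeq2 called 1 member (Rpl8) and 12.8% of all genes, limma-voom 0 members and 0.388% of all genes. The edgeR count was 3 without γδ MCD replicate 4 (Rpl8, Rplp0 and Rps9), where 9.03% of all genes were called. It was 1 without γδ MCD replicate 2 (Rps21), where 4.25% were called. In each of these 4 fits the members' share was below that of all genes.

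Rpl8, beside the peptidyl transferase centre, had 14.1 and 36.7 CPM in γδ cells on the MCD diet, against 80.4 and 63.3 CPM on the control diet. These are 171 and 546 counts on the MCD diet and 1580 and 1169 on the control diet. The log2 fold change was -1.50 (SE 0.52, adjusted p = 0.198), and the adjusted p ran from 0.01 to 0.712 over the alternatives. Rplp0 was on the other side, with 284 and 182 CPM on the MCD diet, against 141 and 136 CPM on the control diet (0.75, SE 0.31, adjusted p = 0.239). Both had groups that did not overlap. The 2 γδ MCD libraries also differed most from each other: Rps21 had 34.8 and 4.70 CPM in them, and Rpl22 202 and 88.3 CPM. They held the fewest genes with at least 10 counts, 8989 and 10125, against 11903 to 13402 in the other 10 libraries.

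Between cell types of WT mice, 60 of 83 members were higher in γδ than in CD4+ T cells on the control diet (47% of all genes), and 60 on the MCD diet (41.8% of all genes). The remaining 23 were lower on each diet, against 51.8% and 55.7% of all genes. The median log2 fold change was 0.37 on each diet, against -0.06 and -0.30 for all genes on the control and MCD diets. This direction depended on the scaling: with libraries scaled by total counts alone the medians were -0.20 on the control diet and -0.43 on the MCD diet, and those of all genes -0.60 and -0.97. On the control diet both γδ libraries lay above both CD4+ libraries for 41 members and below them for 4, against 20.1% and 25.8% of all genes. On the MCD diet the counts were 28 above and 6 below, against 14.5% and 32% of all genes.

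On the control diet 0 members passed an adjusted p of 0.05 in edgeR, where 0.654% of all genes did. At an unadjusted p under 0.05, 7 were higher in γδ cells and 0 lower (5.4% and 5.51% of all genes), and DESeq2 called 1 (Rpl7a; 5.64% of all genes) and limma-voom 0 (1.5%). On the MCD diet 0 members passed in edgeR, where 2.65% of all genes did. At an unadjusted p under 0.05, 9 were higher and 1 lower, against 8.52% and 13.4% of all genes, and DESeq2 called 8 members (9.64%) and 17.6% of all genes, limma-voom 0 members and 4.85% of all genes. The edgeR count on the MCD diet was 9 members (10.8%) without γδ MCD replicate 4, where 12.8% of all genes were called. It was 3 members (3.61%) without γδ MCD replicate 2, where 6.39% were called. The members' share was thus below that of all genes in each of these fits.

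Rpl7a, Rpl18 and Rpl31 stood among the smallest p of the cell type comparisons. Rpl7a (ENSMUSG00000062647.16, chr2:26910764-26913318, plus strand) had 137 and 159 CPM in γδ and 60.3 and 63.3 CPM in CD4+ T cells on the MCD diet, a log2 fold change of 1.26 (SE 0.35, adjusted p = 0.0748). On the control diet it had 136 and 123 CPM in γδ and 72.9 and 56.8 CPM in CD4+ T cells (1.0, SE 0.35, adjusted p = 0.325). Rpl18 had 117 and 128 CPM in γδ and 51.8 and 32.6 CPM in CD4+ T cells on the MCD diet (1.53, SE 0.44). On the control diet it had 86.9 and 138 CPM in γδ and 60.2 and 43.8 CPM in CD4+ T cells (1.11, SE 0.43). Rpl31 had 244 and 228 CPM in γδ and 125 and 107 CPM in CD4+ T cells on the control diet (1.02, SE 0.33, adjusted p = 0.253). None of these groups overlapped.

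Markers of other cells differed between the sorts. The 8 macrophage and Kupffer cell markers summed to 1258 and 1797 CPM in γδ MCD libraries and 766 and 1520 CPM in γδ control libraries, against 10.9 to 47.2 CPM in CD4+ libraries; Clec4f was at 0 in γδ MCD libraries. The 7 markers of sinusoidal endothelium summed to 89.1 and 108 CPM in γδ MCD libraries, where Kdr and Oit3 were at 0, and to 615 and 1155 CPM in γδ control libraries. Neutrophil and monocyte markers, 6 in number, summed to 203 and 314 CPM in γδ MCD and 65.3 and 96.8 CPM in γδ control libraries. Their part in the γδ values was not tested. The diet effect in γδ minus that in CD4+ T cells had a median of -0.07 over the members and -0.16 over all genes. In edgeR 0 members and 0% of all genes passed 0.05 after adjustment, 1 member was higher at an unadjusted p under 0.05 (Rps9, 1.26, SE 0.57) and 0 lower, against 3.47% and 7.1% of all genes. DESeq2 called 0 members and 3.92% of all genes, and limma-voom 0 and 0%. Without γδ MCD replicate 4 edgeR called 2 members (2.41%), Rps3 and Rps9, and 3.93% of all genes.

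**Figure D3:**
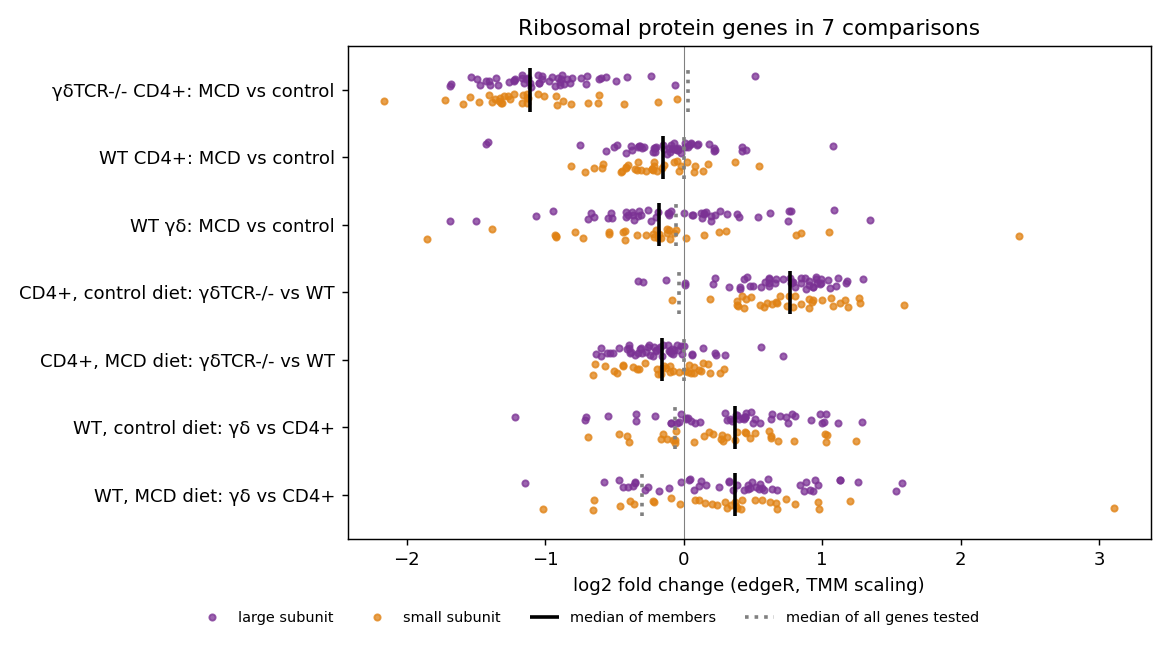
Log2 fold change of each member (points; large subunit in purple, small subunit in orange) in 7 comparisons, with the members' median (black bar) and that of all genes tested (dotted bar). The members sit left of 0 between diets in γδTCR-/- CD4+ T cells (median -1.11) and right of it between genotypes on the control diet (0.77); the 2 lowest rows, at 0.37, lie below 0 (-0.20 and -0.43) when libraries are scaled by total counts alone.

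The paralogs were low in level and varied among libraries. Rps27l, known as a target of p53, had the widest range of all members, 84.2-fold between its highest and lowest library in CPM. The lowest value rests on only 5 counts, in WT CD4+ control replicate 3. Rps27l had 18.2 and 15.0 CPM in γδ cells on the MCD diet, against 1.83 and 4.22 CPM on the control diet. These are 221 and 223 counts on the MCD diet and 36 and 78 counts on the control diet. In WT CD4+ T cells it had 2.85 and 0.831 CPM on the MCD diet, against 6.40 and 0.217 CPM on the control diet. γδTCR-/- CD4+ T cells had 1.11 and 1.43 CPM on the MCD diet, against 4.88 and 7.16 CPM on the control diet. The γδ MCD libraries were thus the 2 highest of the 12. The log2 fold change between diets in γδ cells was 2.42 (SE 1.57, edgeR adjusted p = 0.409), and between γδ and CD4+ T cells on the MCD diet 3.11 (SE 1.62, adjusted p = 0.263). Its partner Rps27 had 182 and 95.7 CPM in γδ cells on the MCD diet, against 158 and 161 CPM on the control diet.

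Rpl22 had 202 and 88.3 CPM in γδ and 57.1 and 40.2 CPM in CD4+ T cells of WT mice on the MCD diet, a log2 fold change of 1.57 (SE 0.46, edgeR adjusted p = 0.0866). On the control diet it had 89.0 and 82.4 CPM in γδ and 74.8 and 62.8 CPM in CD4+ T cells. In γδTCR-/- CD4+ T cells it had 53.1 and 40.8 CPM on the MCD diet, against 65.5 and 72.8 CPM on the control diet. In TMM-scaled CPM all 4 γδ values lay above all 8 CD4+ values. Scaled by total counts alone they did not, and the CPM of γδ MCD cells were 132 and 67.4, γδ control 76.3 and 65.6, WT CD4+ MCD 68.2 and 51.0, and WT CD4+ control 90.4 and 78.7. Rpl22l1, whose mRNA Rpl22 is known to repress, had 15.4 and 6.65 CPM in γδ MCD cells, against 9.0 and 3.85 CPM in γδ control cells. It had 9.44 and 13.0 CPM in WT CD4+ MCD cells and 9.94 and 6.42 CPM in WT CD4+ control cells, and its groups overlapped throughout WT mice. Between diets in γδTCR-/- CD4+ T cells the log2 fold change was -0.56 (SE 0.46) for Rpl22 and -0.23 (SE 1.11) for Rpl22l1.

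Rpl7l1, a paralog of Rpl7 whose human counterpart is found in assembling 60S subunits, had 7.97 and 8.0 CPM in γδTCR-/- CD4+ T cells on the MCD diet but 5.80 and 5.34 CPM on the control diet. Rpl7 had 50.7 and 48.5 CPM on the MCD diet, against 71.1 and 115 CPM on the control diet (log2 fold change -0.91, SE 0.43). In WT CD4+ T cells Rpl7l1 had 11.1 and 12.5 CPM on the MCD diet, against 3.45 and 7.63 CPM on the control diet (log2 fold change 1.08, SE 1.22). Both pairs of diet groups were free of overlap, with Rpl7l1 higher and Rpl7 lower on the MCD diet in CD4+ T cells of either genotype. In γδ cells Rpl7l1 had 14.9 and 2.42 CPM on the MCD diet, against 3.51 and 3.20 CPM on the control diet, so its groups overlapped. Rpl13a also varied widely, from 3.56 to 32.4 CPM, with 30.5 and 7.26 CPM within the γδTCR-/- control group and 8.79 and 32.4 CPM within the WT CD4+ control group. Of the paralogs below the read limit, Rps4l had 22 and 7 of its 33 reads in the γδ control libraries.

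**Figure D4:**
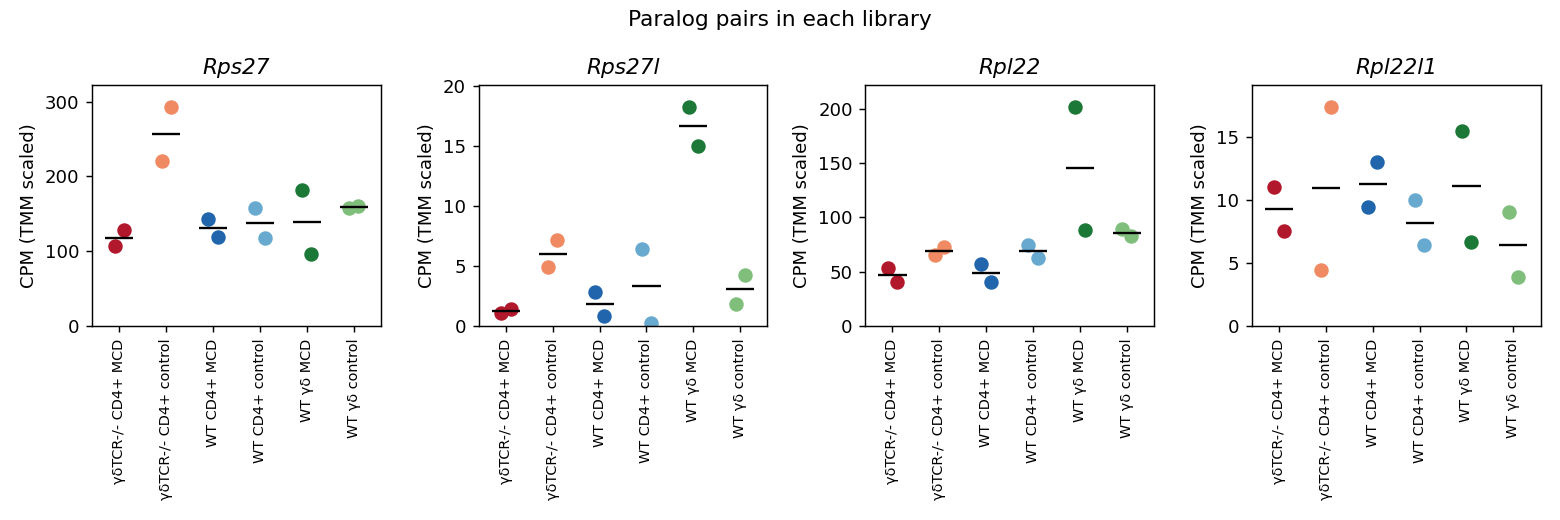
CPM of Rps27 and Rpl22 and of their paralogs Rps27l and Rpl22l1, with 1 point per library and a bar at the mean of each group (n = 2). Rps27l is highest in γδ T cells on the MCD diet (18.2 and 15.0 CPM, against 1.83 and 4.22 CPM on the control diet), and the γδ values of Rpl22 lie above all CD4+ values on this scale, though not when scaled by total counts alone.

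Other genes of translation were read beside the members in γδTCR-/- CD4+ T cells, MCD against control diet. All 6 elongation factors were lower, with a median log2 fold change of -0.93. Eef1a1, which brings aminoacyl-tRNA to the ribosome, had 1245 and 1131 CPM on the MCD diet, against 2225 and 2417 CPM on the control diet (-0.97, SE 0.19, adjusted p = 0.104). Eef2 (-0.89) and Eef1g (-0.99) were close to it. Of 21 further mRNAs with TOP tracts, 13 were lower, with a median of -0.25. They included Tpt1 (-0.96), Rack1 (-1.02), a scaffold on the 40S subunit, Eif3f (-1.16) and Npm1 (-0.81). Gas5, a noncoding TOP RNA that hosts small nucleolar RNAs, had 225 and 295 CPM on the MCD diet, against 84.6 and 130 CPM on the control diet (1.28, SE 0.37, adjusted p = 0.442).

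The genes that build ribosomes had medians near 0. Of 32 ribosome biogenesis genes 15 were lower, with a median of 0.09, and of 11 genes for RNA polymerase I and its factors 5 were lower, with a median of 0.00. Of 20 initiation factors 10 were lower, with a median of 0.02; Eif5 was at 0.94. Of 19 regulators around mTORC1 and Myc 13 were lower, with a median of -0.23, and of 12 genes of the amino acid and integrated stress response 8 were lower, with a median of -0.78. Ddit3, a stress-response transcription factor, was at 2.90 (SE 1.26) and Asns, asparagine synthetase, at 5.57 (SE 2.99). Of 76 mitochondrial ribosomal proteins, which serve a separate ribosome, 42 were lower, with a median of -0.09. None of these genes passed an adjusted p of 0.05 in this comparison in edgeR, with an unadjusted p under 0.05 in 3 elongation factors, 7 further TOP mRNAs, 3 initiation factors, 3 mTORC1 and Myc regulators, 2 stress genes and 1 mitochondrial ribosomal protein. Elsewhere 3 passed, all lower in γδ than in CD4+ T cells: Eif4a2 on the control diet (log2 fold change -2.66, adjusted p = 0.0146), and Wdr12 (-4.76, adjusted p = 0.0274) and Mrpl37 (-6.87, adjusted p = 0.0494) on the MCD diet. Of all genes, 0.654% passed between cell types on the control diet and 2.65% on the MCD diet. The γδ MCD libraries held the fewest genes with at least 10 counts, as given above.

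**Figure D5:**
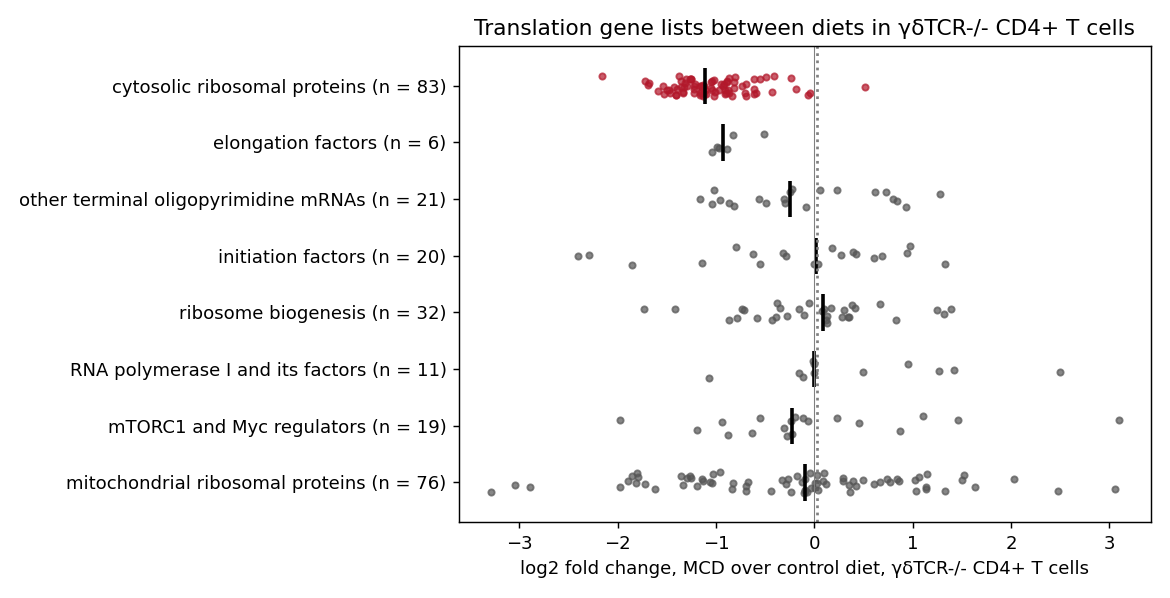
Log2 fold change, MCD over control diet in γδTCR-/- CD4+ T cells, for each gene (points) of 8 translation lists, with the list's median (black bar) and the median of all genes tested (dotted line). Cytosolic ribosomal proteins (median -1.11) and elongation factors (-0.93) lie left of 0, while ribosome biogenesis genes (0.09) and mitochondrial ribosomal proteins (-0.09) spread around it.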

How the data were processed

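Per the submitters' processing notes, bcl2fastq, STAR, featureCounts and DESeq2 were used on the mm10 (GRCm38) build; versions, strand setting and treatment of reads with several matches are not given in the sources used here. The authors deposited raw counts per gene, used for all tests, and FPKM values, used for levels per length and as an alternative. The deposited FPKM values were found to be scaled by DESeq2's median-of-ratios size factors, to within 0.00075%. Positions came from GENCODE vM21.

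Genes were kept with filterByExpr (minimum count 10, minimum total 15). All 12 libraries were fitted together, 1 coefficient per group, with edgeR 4.0.16 under R 4.3.3 (TMM scaling, quasi-likelihood test, 2-sided, prior count 2, Benjamini-Hochberg adjustment over all 16218 genes, threshold 0.05). Standard errors were taken from the F statistic. Members and lists were chosen with earlier results of these data known. Named were the 3 members of smallest p per comparison, the 6 highest by FPKM, the 4 highest and 4 lowest between diets in γδTCR-/- cells, the stalk proteins, Rpsa, Rps6, Rps27a, paralogs with their partners and members at the read limit. Of other lists, called genes and up to 4 of smallest p in γδTCR-/- cells were named. Some genes that this rule names are not reported here, though they stay in all counts and medians. Rpl13a, Rps21 and Rps4l were named after their values were seen. Alternatives were other scalings, filters, tools (DESeq2 1.42.0, limma 3.58.1), log2 FPKM with pseudocounts of 1 and 0.1, and each library left out. Replicate counts differed by more than sampling noise in every group. On simulated counts, changes were given to genes drawn at random from all those tested, and the fit recovered only a minority of them. Recovery was not measured for the members, which differ from such genes in level. A lack of calls does not show a lack of change.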

Additional observations from a re-analysis of the deposited data

How the results depend on the processing

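Between diets in γδTCR-/- CD4+ T cells, the count of called members was 0 in the edgeR fit, 2 with no filter on low counts (0.406% of all genes), 2 in limma-voom, 10 in DESeq2 and 4 with only the CD4+ libraries. With the replicate block it was 7 (0.609% of all genes), with a median of -1.12. γδTCR-/- libraries of the same replicate number did not deviate together between diets (correlation -0.01 over all genes), so there the numbers were not taken to pair libraries. No other comparison shares 2 numbers. DESeq2 called 1 member in each of γδ T cells between diets, CD4+ T cells between genotypes on the control diet, and γδ against CD4+ T cells on the control diet. On the MCD diet γδ against CD4+ T cells had 8 calls in DESeq2 (17.6% of all genes), 3 with log2 FPKM at either pseudocount (4.06% and 5.75% at 1 and 0.1) and 1 with genes of a mean of at least 50 reads (6.22%). The cause of these differences was not tested.

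Scaling by total counts alone moved the median log2 fold change to -0.81 between diets in γδTCR-/- cells, -0.40 between diets in γδ cells, 0.40 between genotypes on the control diet, -0.20 and -0.43 between cell types on the control and MCD diets, and -0.59 for the difference of diet effects between genotypes. It put Rps27a (0.12), Rpl27a (0.25) and Rps13 (0.26) above 0 between diets in γδTCR-/- cells. Such scaling shifts all genes of a library together, so these moves are not particular to the members. As a percent of the summed FPKM of non-mitochondrial genes, the members held 2.78% and 4.73% in γδTCR-/- MCD and control cells. They held 2.94% and 3.49% in WT CD4+ MCD and control cells, and 2.38% and 2.48% in γδ MCD and control cells.

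With 1 library left out, a group of 1 was assumed to vary like the others. Calls then ran between 0 and 9 between diets in γδTCR-/- cells, 0 and 3 between diets in γδ cells, 0 and 9 between cell types on the MCD diet, 0 and 2 for the difference of diet effects between cell types, and stayed at 0 in the other 5. Medians ran from -1.30 to -0.92 between diets in γδTCR-/- cells, -0.42 to 0.040 in WT CD4+ and -0.39 to -0.02 in γδ cells. They ran from 0.56 to 0.96 between genotypes on the control diet and -0.31 to 0.060 on the MCD diet, and from 0.16 to 0.56 between cell types on the control diet and 0.12 to 0.60 on the MCD diet. For the differences of diet effects they ran from -1.15 to -0.71 between genotypes and -0.24 to 0.19 between cell types. Rps27a ran from -0.67 to 0.18, Rpl27a from -0.38 to 0.29 and Rps13 from -0.27 to 0.15 between diets in γδTCR-/- cells. With 2 libraries a group, the number of libraries limits every test.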

Other observations

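The table also held 276 rows of ribosomal protein pseudogenes (symbols ending in -ps and a number), with 43178 reads in all, against 1911505 reads on the 83 members. The median level was 34.8 FPKM for 24 members with none, 39.1 FPKM for 32 members with 1 to 3 and 30.6 FPKM for 27 members with at least 4. The ratio of large-subunit to small-subunit counts ran from 1.14 to 1.58 over the 12 libraries, highest in replicate 4 of the γδ MCD group.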
